A study of Mus musculus with 24 samples.

Results

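Major urinary proteins (Mup) are small secreted lipocalins that carry pheromones and other hydrophobic ligands. They are made chiefly in the liver, pass through the blood and leave the body in the urine, where they release scent slowly from the marks that mice set. The family lies in one array on chromosome 4, and the genes in its middle are recent copies of each other. Growth hormone, testosterone and thyroid hormone are known to control Mup expression in the liver, and males are known to make more of these proteins than females.

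The 10 genes described here, Mup7, Mup9, Mup1, Mup11, Mup12, Mup14, Mup15, Mup16, Mup17 and Mup18 in the order of the chromosome, were chosen by name as the near-identical central copies, out of 22 Mup genes and 25746 genes in the count tables. Their RNA was measured by RNAseq in 24 livers of C57/BL6N mice aged 12 weeks, with 6 mice in each of 4 groups. The male (mWT) and female (fWT) wildtype mice carried the whole array. The male (mKO) and female (fKO) knockout mice were homozygous for a CRISPR/Cas9 deletion of the entire Mup cluster. The WT mice are described as littermates of the KO mice, and the line was bred by crossing heterozygous descendants of 1 male founder, so the KO groups stand for 1 deletion event.

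Libraries held 15361901 to 26261394 counts. Levels are given as CPM, the count of a gene scaled to a common library total. Reads on genes of the Y chromosome matched the labelled sex in 24 of 24 libraries, but fKO mouse 2 had 2 such reads while the other 11 female libraries had 0. The 5 hepatocyte markers Alb, Apoa1, Ttr, Cps1 and Cyp2e1 summed to between 94260 and 150001 CPM in every library, so the libraries carried the liver signature of their label. Of the markers of other cell types, the 4 Kupffer cell genes summed to 63.0 to 128 CPM in mWT and 114 to 211 CPM in fWT. The cholangiocyte genes stayed at or under 5.07 CPM. In whole liver RNA, fewer cells of a type and less RNA per cell cannot be told apart.

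How alike the 10 genes are decides how a read can be assigned, so their sequences are shown first. All 10 lie on the minus strand of chromosome 4 in GRCm38, from Mup7 at chr4:60066469-60070475 to Mup18 at chr4:61670177-61674136, each within a gene body of about the same size. No exon of theirs overlapped an exon of another annotated gene. The coding sequences aligned over 546 columns, of which 17 varied, and the identity of the 45 pairs ran from 98.5% to 100% with a median of 99.3%, inserted bases not counted. The identity of 100% belonged to Mup9 and Mup18, which carried no substitution against each other and differed only by 3 inserted bases in Mup18. The start of the coding sequence holds much of this variation and is printed for each gene from its ATG, 5′ to 3′, with capitals where a base is not the one that most of the 10 genes carry.
Mup7, chr4:60070232-60070300: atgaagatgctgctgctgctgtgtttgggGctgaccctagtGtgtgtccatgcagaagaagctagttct
Mup9, chr4:60421818-60421886: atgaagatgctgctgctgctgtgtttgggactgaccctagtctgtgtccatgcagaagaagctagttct
Mup1, chr4:60501781-60501849: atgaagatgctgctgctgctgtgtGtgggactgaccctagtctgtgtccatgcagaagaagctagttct
Mup11, chr4:60662229-60662300: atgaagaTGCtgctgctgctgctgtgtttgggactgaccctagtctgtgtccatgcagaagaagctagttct
Mup12, chr4:60741147-60741215: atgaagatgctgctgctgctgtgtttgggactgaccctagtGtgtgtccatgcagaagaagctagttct
Mup14, chr4:61303821-61303889: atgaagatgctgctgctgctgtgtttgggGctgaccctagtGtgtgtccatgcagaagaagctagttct
Mup15, chr4:61439564-61439632: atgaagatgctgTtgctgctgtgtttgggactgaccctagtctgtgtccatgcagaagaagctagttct
Mup16, chr4:61519352-61519420: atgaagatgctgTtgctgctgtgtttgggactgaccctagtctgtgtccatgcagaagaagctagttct
Mup17, chr4:61595692-61595760: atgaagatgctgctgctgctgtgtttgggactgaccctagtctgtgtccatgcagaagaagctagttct
Mup18, chr4:61673954-61674025: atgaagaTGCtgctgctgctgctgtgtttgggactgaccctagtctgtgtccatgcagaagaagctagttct

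Mup11 and Mup18 shared the 3 additional bases, Mup7 and Mup14 shared A30G, and Mup7, Mup12 and Mup14 shared C42G. Positions are counted from 1 at the A of the ATG, with the base of the majority first. C13T stood in Mup15 and Mup16 and T25G in Mup1 alone. Further along the coding sequence, Mup17 carried the most substitutions of its own, namely T156A, A157C and T366C. The stretch with the first pair of them is printed beside that of Mup9, which matches the majority at every position, and of Mup7 and Mup16, which each have 1 substitution of their own there, A138G and C129T.
Mup9, chr4:60421370-60421429: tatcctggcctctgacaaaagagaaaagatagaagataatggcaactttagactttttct
Mup7, chr4:60069784-60069843: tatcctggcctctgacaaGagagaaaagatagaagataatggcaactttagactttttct
Mup16, chr4:61518904-61518963: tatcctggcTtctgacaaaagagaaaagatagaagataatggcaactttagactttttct
Mup17, chr4:61595244-61595303: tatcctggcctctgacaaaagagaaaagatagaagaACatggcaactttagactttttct

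The authors sequenced single-end reads of 100 bases, so the mRNA of each gene was cut into all of its 100-base windows, and each window was looked up in every annotated mouse transcript. Mup17 was the most distinct of the 10, with 336 of 828 windows found in no other gene. Mup15 was the least distinct, with 22 of 826, and the other 8 genes had between 71 of 826, in Mup14, and 186 of 827, in Mup12. Among the 10 genes, Mup1 and Mup12 were the closest pair and had 624 windows in common. The likeness was not closed to the 10 genes. Mup2, Mup8, Mup10, Mup13 and Mup22 lie between them on the chromosome and also share windows with other Mup genes, and the closest gene to Mup9 by this measure was Mup19, with 590 windows in common. How the authors' counting treated reads that match several genes is not given in the sources used here. The division of reads among the 10 genes is therefore uncertain. Mup19, with 0 of 828 windows found in no other gene, had 20 reads over the 6 mWT mice. Mup22, with 0 of 762, had 497. Whether reads that match several genes were left out was not tested. The sum is uncertain too, because most windows that were not unique also occurred outside the 10 genes. Windows shared among the 10 alone ran from 16 of 651 shared windows in Mup9 to 329 of 721 in Mup7.

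**Figure D1:**
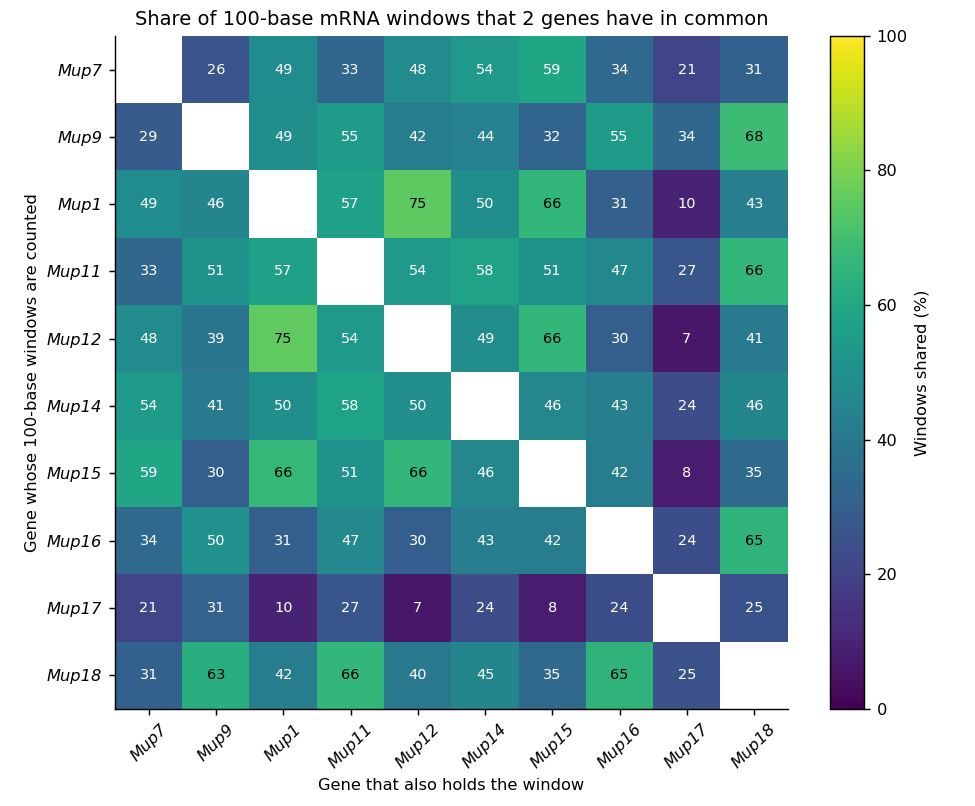
Share of the 100-base mRNA windows of the gene in each row that also occurs in the gene of each column, in percent, for the 10 genes in chromosome order. Mup1 and Mup12 share the most windows of the pairs drawn, 624, and the row of Mup17 holds the lowest values, with 336 of its 828 windows in no other gene.

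The 10 genes accounted for a visible part of the male liver transcriptome and for almost none of the female. Their summed level was lowest at 6292, median 9125 and highest at 16044 CPM among the 6 mWT mice, a mean of 10195 ± 3972 CPM (SD, n = 6). Among the 6 fWT mice it was lowest at 30.4, median 238 and highest at 552 CPM, a mean of 263 ± 186 CPM (SD, n = 6). The groups did not overlap, and the lowest male stood 11.4-fold above the highest female. The ratio of the means was 38.7. As a part of all counts in a library, the 10 genes took 0.628% to 1.58% in mWT and 0.00302% to 0.0568% in fWT.

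Within the family, too, the place of the 10 genes depended on sex. They held 37.6% ± 7.63 (SD, n = 6) of all Mup reads in mWT, between 26.5% and 48.7%. In fWT they held 6.62% ± 4.77 (SD, n = 6), between 0.763% and 13.8%, and the groups did not overlap. The remainder in females was almost wholly Mup3, with 83.3% to 96.7% of the Mup reads, whereas Mup3 held 33.5% to 44.96% in males. Mup20, the gene of the male pheromone darcin, held 16.3% to 27.3% in mWT and 1.69% to 2.77% in fWT. The 12 other Mup genes together were 4.36-fold higher in mWT than in fWT. Mup3 had 859 of 885 windows found in no other gene and Mup20 had 507 of 829, against 22 to 336 in each of the 10 genes. These shares therefore depend on how reads that match several genes were counted.

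**Figure D2:**
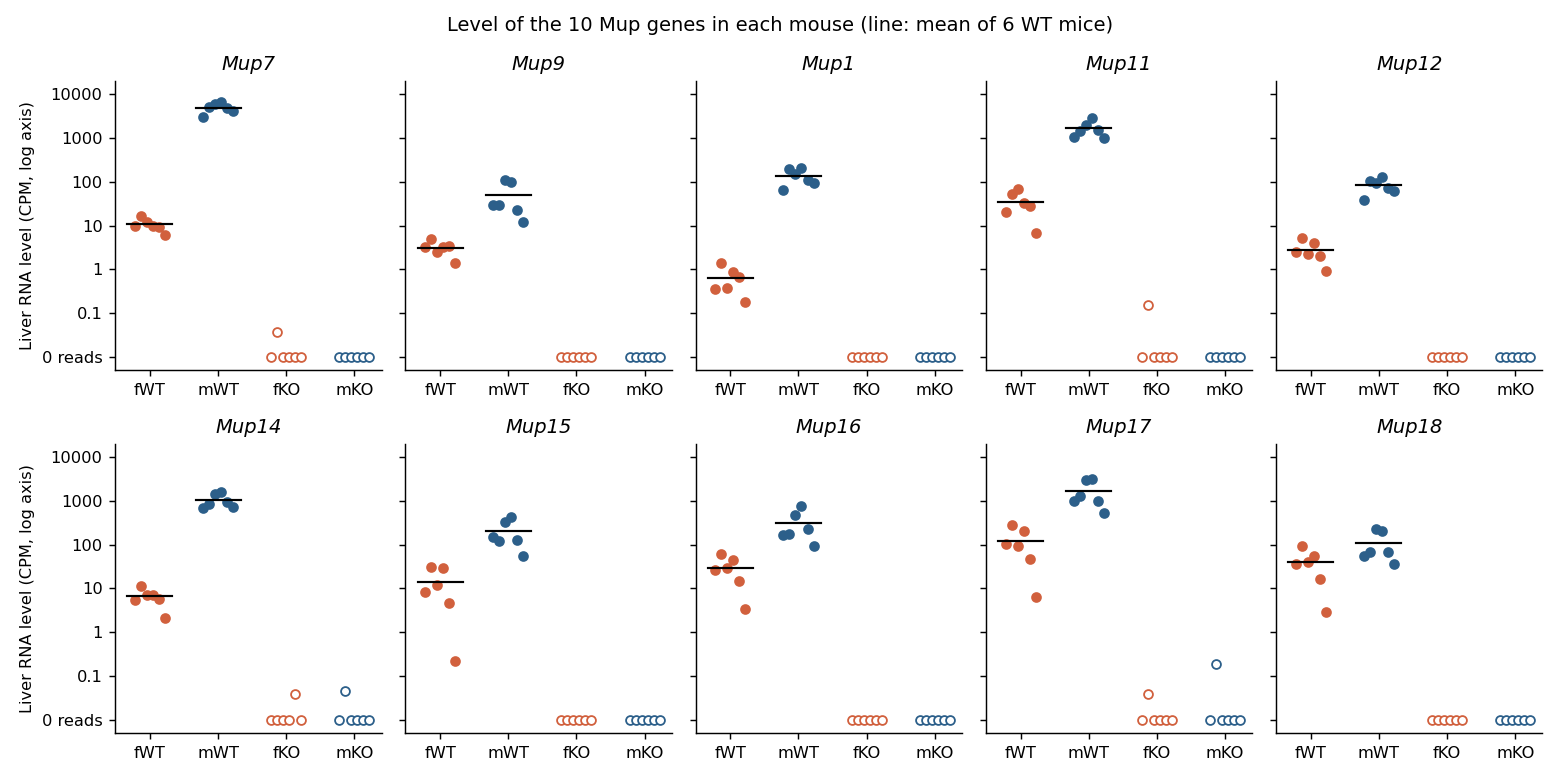
Level of each of the 10 genes in every mouse in CPM on a log axis, with filled points for WT, open points for KO, a line at the mean of the 6 WT mice and libraries without a read set on the line marked 0 reads. The 6 mWT points lie above all 6 fWT points for 9 genes, and for Mup18 they overlap.

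The comparison of mWT with fWT asks how far the 10 copies share the sex difference that the family is known for. By the quasi-likelihood test of edgeR, 9 of the 10 genes were higher in mWT at p under 0.01, and the same 9 at an adjusted p under 0.05. Of all 12330 genes tested, 9.03% were higher in mWT by the first rule and 8.51% by the second. For these 9 genes the 2 groups did not overlap, which 3.67% of all genes tested showed in this direction. All 10 genes passed the filter on low values, and the 6 mWT mice alone sufficed for it. The median log2 fold change over the 10 was 4.47, against 0.00 over all genes tested. The Kupffer cell markers differed between the same groups, with 3 of 4 at an adjusted p under 0.05 and lower in mWT. The same held for 2 of 4 endothelial markers, 1 of 4 stellate markers and 1 of the 3 lymphocyte markers that were tested. The summed endothelial markers stood at 103 to 123 CPM in mWT and 117 to 160 CPM in fWT, the stellate ones at 134 to 218 and 193 to 233 CPM, and the part of these cells in the result was not tested. Of the 5 hepatocyte markers 0 passed by edgeR or by DESeq2, with 1 at an unadjusted p under 0.05.

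Although their coding sequences differ at so few positions, the size of the sex difference ran from 467-fold to 2.75-fold in the ratio of the means. Mup7 (ENSMUSG00000073842, chr4:60066469-60070475) had the widest gap. It was lowest at 3061, median 4947 and highest at 6647 CPM in mWT and lowest at 6.14, median 9.82 and highest at 16.6 CPM in fWT. The lowest male was 185-fold above the highest female. The means differed 467-fold, and the log2 fold change was 8.87 ± 0.27 (SE), with an adjusted p of 8.1e-15 by edgeR.

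Mup1 and Mup14 followed, with means 213-fold and 156-fold higher in mWT. Mup1 (ENSMUSG00000078683, chr4:60498012-60501960) was almost silent in females, at 0.178, 0.520 and 1.43 CPM for the lowest, median and highest fWT mouse, against 66.2, 130 and 209 CPM in mWT. Its log2 fold change was 7.74 ± 0.46 (SE), with an adjusted p of 5.1e-07 by edgeR. Mup14 (ENSMUSG00000073830, chr4:61300023-61304000) stood at 686, 876 and 1548 CPM in mWT and at 2.13, 6.41 and 11.5 CPM in fWT. The log2 fold change was 7.29 ± 0.32 (SE), with an adjusted p of 8.8e-14 by edgeR.

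Mup11 and Mup12 formed a middle range. Mup11 (ENSMUSG00000073834, chr4:60658466-60662411) had a lowest, median and highest level of 991, 1500 and 2912 CPM in mWT and of 6.89, 30.1 and 66.9 CPM in fWT, a log2 fold change of 5.59 ± 0.49 (SE), adjusted p = 6.0e-07 by edgeR. Mup12 (ENSMUSG00000094793, chr4:60737383-60741326) had 37.6, 82.9 and 131 CPM in mWT and 0.934, 2.35 and 5.10 CPM in fWT, a log2 fold change of 4.92 ± 0.42 (SE), adjusted p = 1.0e-05 by edgeR. Mup1 and Mup12 share the most windows of the 45 pairs among the 10 genes, and yet their ratio differed between the sexes. For each Mup12 read there were 1.497 to 1.83 Mup1 reads within the mWT mice and 0.148 to 0.333 within the fWT mice. Per kb of merged exons the mWT means were 86.9 CPM for Mup1 and 90.8 CPM for Mup12. The read ratio therefore shows a shift between the sexes and does not rank these genes in males.

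In Mup9, Mup15, Mup16 and Mup17 the means differed 10.5-fold to 16.2-fold and the groups came close to touching. Mup17 (ENSMUSG00000096688, chr4:61591929-61595871), the most distinct in sequence, had the highest mean CPM of the 10 in females. Set against its number of unique windows it had rank 3 in fWT. It stood at 524, 1142 and 3112 CPM in mWT and at 6.22, 96.05 and 277 CPM in fWT, and its log2 fold change was 3.77 ± 0.60 (SE) with an adjusted p of 0.00014 by edgeR. The lowest male was 1.89-fold above the highest female.

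Mup16 (ENSMUSG00000078675, chr4:61515592-61519531) had 91.6, 198 and 747 CPM in mWT and 3.38, 27.6 and 59.6 CPM in fWT, a log2 fold change of 3.40 ± 0.72 (SE), adjusted p = 0.0085 by edgeR. Mup15 (ENSMUSG00000096674, chr4:61435790-61439743) had 53.9, 141 and 429 CPM in mWT and 0.222, 10.03 and 30.7 CPM in fWT, a log2 fold change of 3.86 ± 0.85 (SE), adjusted p = 0.011 by edgeR. Mup9 (ENSMUSG00000078686, chr4:60418046-60421952) was lower in both sexes, with 12.2, 29.2 and 112 CPM in mWT and 1.38, 3.20 and 5.05 CPM in fWT, a log2 fold change of 4.03 ± 0.63 (SE), adjusted p = 0.0013 by edgeR. In each of the 3 genes the lowest male remained above the highest female, by 1.54-fold in Mup16, 1.76-fold in Mup15 and 2.42-fold in Mup9.

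Mup18 (ENSMUSG00000078674, chr4:61670177-61674136), the last of the 10 on the chromosome, did not pass the test. It stood at 36.5, 66.6 and 230 CPM in mWT and at 2.93, 38.0 and 92.1 CPM in fWT. The groups overlapped, with 3 of 6 fWT mice above the lowest mWT mouse and 4 of 6 mWT mice below the highest fWT mouse. The means were 111 ± 85.2 and 40.1 ± 31.2 CPM (SD, n = 6). The log2 fold change was 1.46 ± 0.72 (SE), with an adjusted p of 0.20 by edgeR, and the unadjusted p of the same test was 0.070. Mup18 and Mup9 have the same coding bases apart from the 3 inserted ones, and Mup9 passed. Within the fWT mice Mup9 reached 0.0548 to 0.470 of the Mup18 reads, and within the mWT mice 0.334 to 0.528. The overlap of this ratio rested on fWT mouse 6, without which the females ended at 0.207 and lay below all males.

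**Figure D3:**
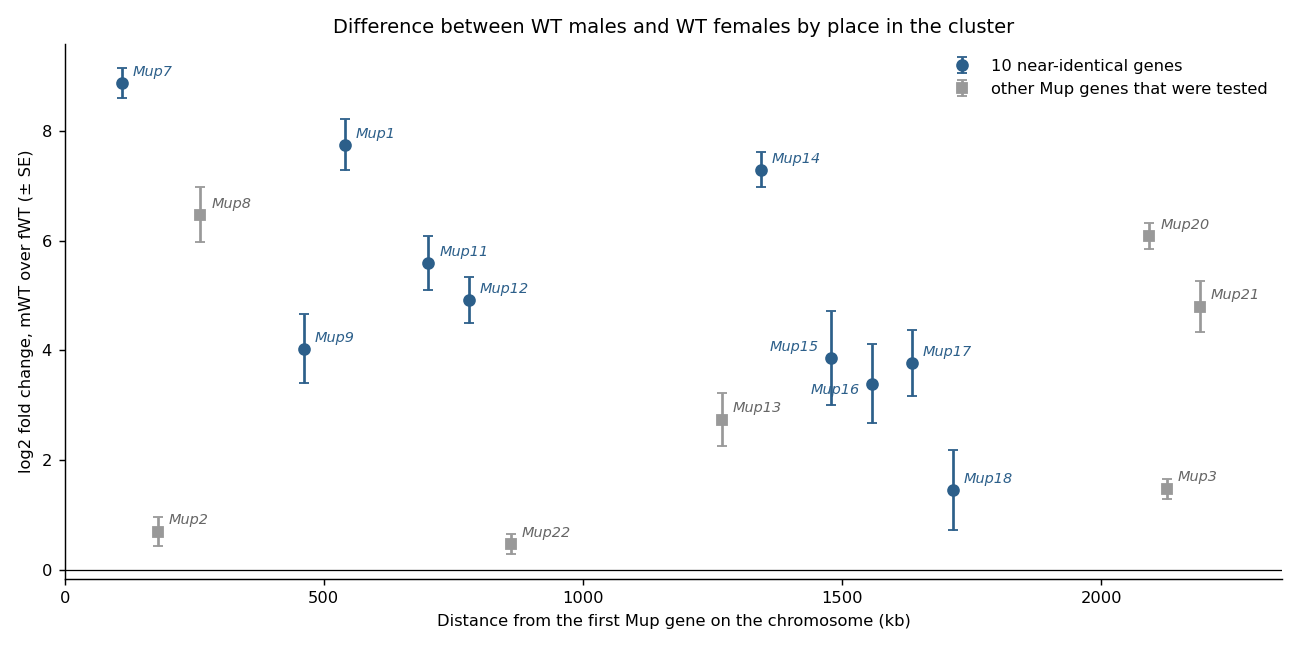
Log2 fold change of mWT over fWT with its SE for each Mup gene tested, against the distance in kb from the first Mup gene of the chromosome, with circles for the 10 genes and squares for 7 other Mup genes. Mup7 has the highest value, 8.87, and Mup18 the lowest of the 10, 1.46.

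The place on the chromosome and the size of the difference could be set side by side. The 4 genes from Mup15 to Mup18 had log2 fold changes of 1.46 to 3.86 and follow each other without another Mup gene between them. The 6 genes before them had 4.03 to 8.87, and among these Mup9 was lowest. Of the other 7 Mup genes tested, 5 were higher in mWT at an adjusted p under 0.05. The 4 of these 7 that lie among the 10 genes were divided. Mup8 and Mup13 passed, with log2 fold changes of 6.47 and 2.74 and adjusted p = 6.2e-07 and 0.0011 by edgeR, whereas Mup2 and Mup22 had 0.70 and 0.47 and did not pass, with adjusted p = 0.089 and 0.096. All 4 were low, with means of at most 10.97 CPM in mWT. Of the 3 beyond Mup18, Mup20 had 6.08 ± 0.23 (SE), Mup21 had 4.80 ± 0.46 (SE) and Mup3 had 1.48 ± 0.18 (SE), with adjusted p = 5.8e-16, 3.1e-05 and 2.1e-06 by edgeR.

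Promoters of 7 of the 10 genes, all but Mup1, Mup12 and Mup16, were found in the RefSeq table of GRCm38.p6, each covering 250 bases before to 50 bases after the start site. They contained a stretch of 43 bases in which each copy differed from the majority at no more than 1 position. This stretch was located by an exact match of its opening letters, which are therefore the same in every copy by choice. Its length was set beforehand. It is printed 5′ to 3′ with capitals where a base is not the majority base, because the 7 genes differ so much in level and in sex difference.
Mup7, chr4:60070546-60070588: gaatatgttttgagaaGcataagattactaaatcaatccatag
Mup9, chr4:60422160-60422202: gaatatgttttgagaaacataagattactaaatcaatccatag
Mup11, chr4:60662572-60662614: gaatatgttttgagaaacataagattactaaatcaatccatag
Mup14, chr4:61304152-61304194: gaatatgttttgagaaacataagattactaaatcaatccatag
Mup15, chr4:61439902-61439944: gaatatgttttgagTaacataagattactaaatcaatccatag
Mup17, chr4:61596032-61596074: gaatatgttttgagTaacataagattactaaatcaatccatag
Mup18, chr4:61674290-61674332: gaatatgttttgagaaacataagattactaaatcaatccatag

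Mup15 and Mup17 carried the same single change in this stretch, and Mup7, the gene with the widest sex difference, carried another. Mup9, Mup11, Mup14 and Mup18 had identical letters there, with log2 fold changes of mWT over fWT from 1.46 in Mup18 to 7.29 in Mup14. The letters TATATAA, a form of the TATA box, stood in 6 of the 7 windows, against 3.24% of the 32851 promoter windows of the table. A run of at least 9 A on either strand, AAAAAAAAA, stood in 6 of 7, against 6.003%. The Mup7 window held neither. However, the stretch printed above begins 113 bases before the RefSeq start site of Mup7, against 196 to 250 bases in the other 6. The Mup7 window thus ended before it could hold either set of letters at the distance from the stretch seen in the other 6. Whether Mup7 carries them at that place was not tested. The letters TTCNNNGAA, the core that STAT factors bind, were in 0 of the 7 windows, against 8.30% of all windows, which says only that these letters are not in these bases. Each motif was searched on both strands, and TATATAA can share its last letters with a run of A.

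Levels of different genes were compared per kb of their merged exons. In mWT the order was Mup7 at 4802 ± 1275, Mup17 at 1787 ± 1213, Mup11 at 1056 ± 454 and Mup14 at 735 ± 268 CPM per kb (SD, n = 6). Mup16, Mup15, Mup18, Mup12, Mup1 and Mup9 followed, from 299 ± 240 in Mup16 down to 33.8 ± 28.6 CPM per kb in Mup9. The ranges of all neighbours in this order overlapped. Mup7 was above Mup17 in each of the 6 mice and Mup17 above Mup11 in 5 of 6, while Mup18 was above Mup12 in only 3 of 6.

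In fWT the order was another. Mup17 led at 131 ± 110, before Mup18 at 43.2 ± 33.5, Mup16 at 28.4 ± 19.3 and Mup11 at 21.9 ± 13.9 CPM per kb (SD, n = 6). Mup7, first in males, was sixth at 10.3 ± 3.35 CPM per kb, and Mup1 was last at 0.408 ± 0.287 CPM per kb. Only Mup9 and Mup1, the last neighbours, had ranges that did not overlap. Set against the number of unique windows in place of the length, Mup7 stayed first in mWT. Mup17, however, moved from rank 2 to rank 5 there, and Mup14 from rank 4 to rank 2. In fWT, Mup15, with its 22 unique windows, moved from rank 5 to rank 1. The male order below Mup7 and the female order thus depend on the measure of length.

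The make-up of the summed reads also differed between the sexes, with no overlap for 6 of the 10 shares. Mup7 gave 41.4% to 61.2% of the reads on the 10 genes in mWT and 2.49% to 20.2% in fWT. Mup14 gave 8.89% to 10.9% in mWT and 1.83% to 7.02% in fWT, and Mup1 gave 1.05% to 2.09% and 0.145% to 0.585%. These 3 shares were higher in males with no overlap. The shares of Mup9, Mup16 and Mup18 were higher in females with no overlap. Mup18 gave 0.552% to 1.65% in mWT and 9.65% to 17.0% in fWT, and Mup16 gave 1.38% to 4.66% in mWT and 10.8% to 12.4% in fWT.

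The other 4 shares, those of Mup11, Mup12, Mup15 and Mup17, overlapped between the sexes. Mup17 gave 7.92% to 21.7% in mWT and 20.5% to 53.0% in fWT, and Mup11 gave 14.5% to 18.2% in mWT and 8.33% to 25.5% in fWT. For Mup15 and Mup17 the overlap rested on fWT mouse 6. Without it Mup17 gave 34.8% to 53.0% in fWT, and Mup15 gave 3.46% to 7.35% against 0.815% to 2.68% in mWT, so that 8 of the 10 shares did not overlap. The same mouse set the upper end of the Mup7 share in fWT, which was 7.24% without it. Without mWT mouse 3, whose Mup17 share was the highest of the males, 7 of 10 did not overlap. In females the share of Mup16 was 11.3% ± 0.56 (SD, n = 6). The summed level of these mice differed 18.2-fold, with mouse 6 at the low end. Because shares within a mouse must add up, the ratios of pairs were also taken within each mouse. In 25 of the 45 pairs the ratio did not overlap between mWT and fWT, and in 30 without fWT mouse 6. The pair with the largest shift was Mup7 and Mup18, with 26.6 to 111 Mup7 reads for each Mup18 read in mWT and 0.180 to 2.09 in fWT. Without fWT mouse 6 the highest female ratio was 0.590.

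**Figure D4:**
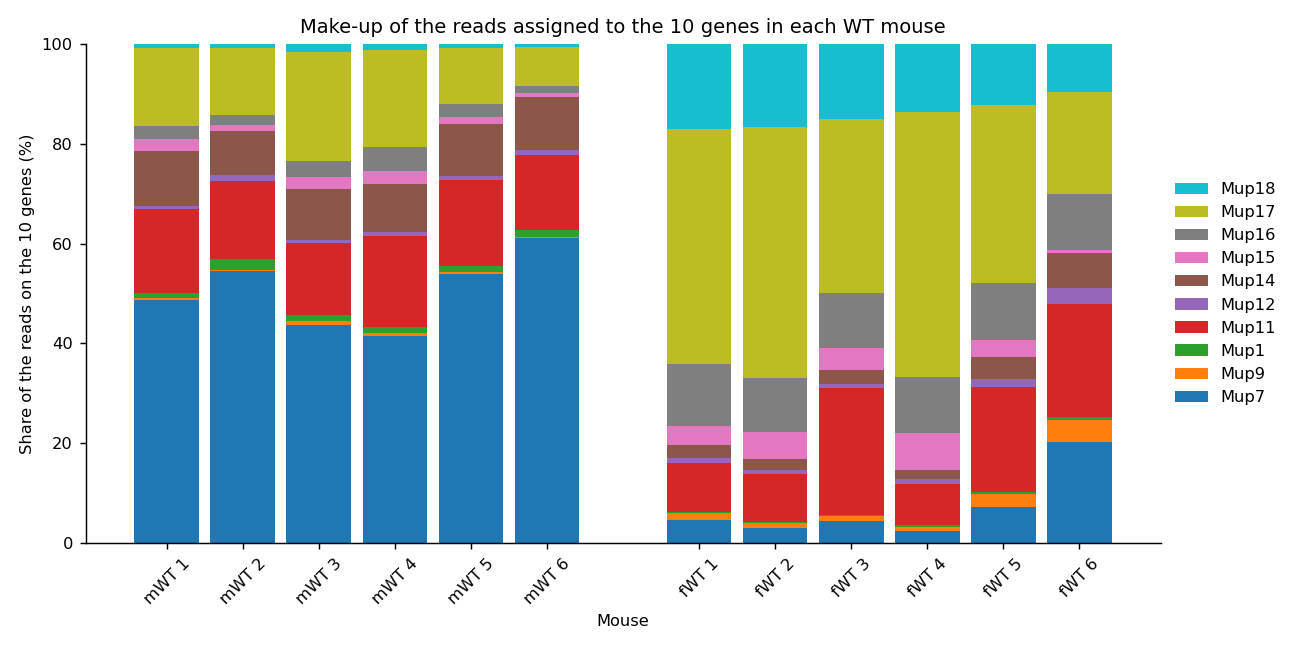
Share of each gene in the reads assigned to the 10 genes, in percent, with 1 bar for each of the 6 mWT and 6 fWT mice. Mup7 takes 41.4% to 61.2% of each male bar, and Mup16, Mup17 and Mup18 together take the larger part of 5 of the 6 female bars.

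The 10 genes varied more between mice of a group than most genes. The coefficient of variation was 26.5% for Mup7 and 84.7% for Mup9 at the ends of the range in mWT, and 32.5% for Mup7 and 90.7% for Mup15 in fWT. The median of all genes tested was 13.7% in mWT and 12.8% in fWT. Even Mup7, the steadiest, was more variable than 81.5% of the tested genes in mWT and 91.4% in fWT. Mup9, Mup15, Mup16, Mup17 and Mup18 were each above 99.0% of them in mWT.

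The mice that were high or low were largely the same across the 10 genes. Among females, mouse 2 was highest for 9 of the 10 genes and mouse 6 was lowest for 10 of 10. In mouse 6 the genes from Mup15 to Mup18 were the ones furthest below the other females, with 5 reads on Mup15, 76 on Mup16, 140 on Mup17 and 66 on Mup18 in a library of 22701604 counts. Mup15 differed 138-fold between the highest and the lowest female and Mup17 44.5-fold, whereas Mup7 differed 2.70-fold. Mouse 6 was not low for the family as a whole, since its Mup3 level, 3856 CPM, was the second highest of the 6 females and its Mup20 level, 84.3 CPM, the third highest.

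Among males, mouse 4 was highest for 8 genes and mouse 3 for the remaining 2, Mup9 and Mup18. Mouse 6 was lowest for 6 genes and mouse 1 for 4. Mup9 stood at 112 and 98.4 CPM in males 3 and 4 and at no more than 29.4 CPM in the other 4, and Mup17 at 3035 and 3112 CPM in these mice and at no more than 1277 CPM in the others. Mup7 and Mup14 did not set these mice apart to the same degree, with highest over lowest levels of 2.17-fold and 2.26-fold over the 6 males. Among males, Mup9 set mice 3 and 4 apart as the genes from Mup15 to Mup18 did, although it lies between Mup8 and Mup1 and over 1 Mb away from them. Among females it did not vary as these genes did, with 3.67-fold between the highest and the lowest mouse against 17.6-fold to 138-fold from Mup15 to Mup18. The mice shared a library and reads can be shared between copies, so the common order is a description.

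**Figure D5:**
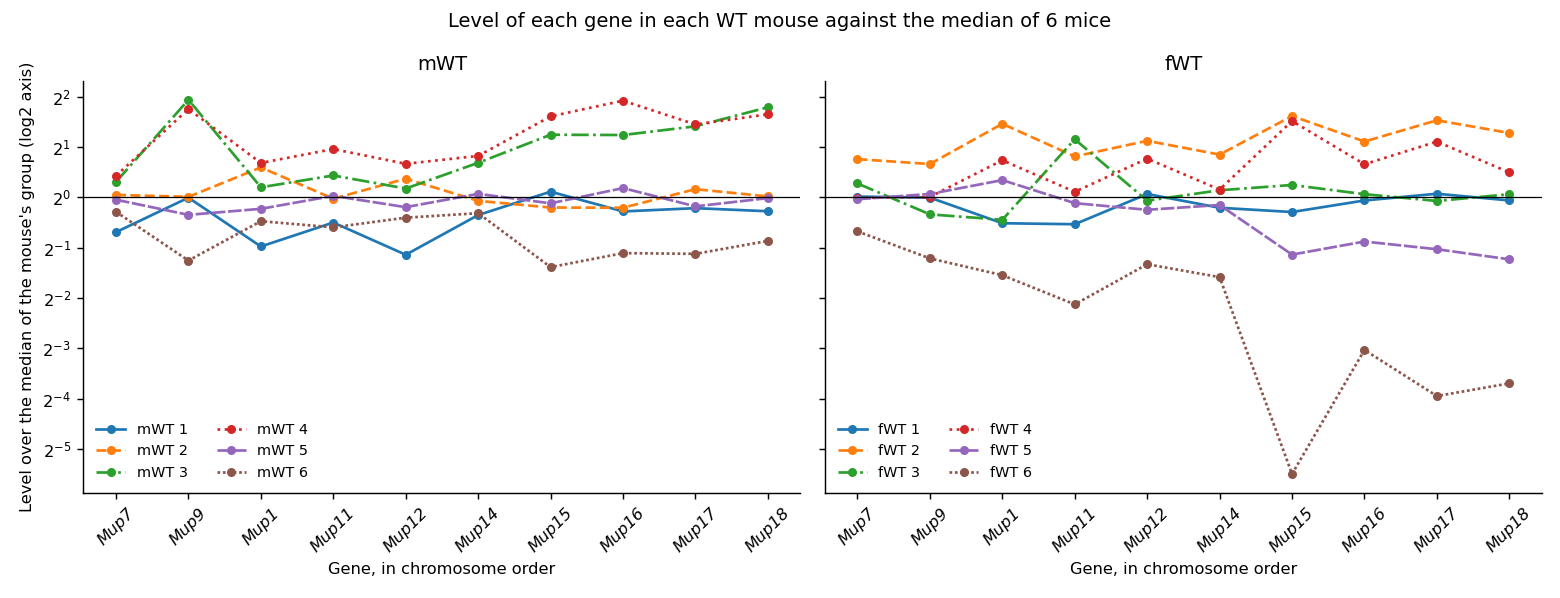
Level of each of the 10 genes in each WT mouse divided by the median of the 6 mice of its group, on a log2 axis, with genes in chromosome order and 1 line per mouse, males left and females right. Female 6 falls furthest at Mup15, where it had 5 reads, and males 3 and 4 stand apart at Mup9 and from Mup15 to Mup18.

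Outside the family, 12297 tested genes were ranked by how closely their log2 level followed that of the summed 10 genes over the 12 WT mice, centred within each sex. The 5 closest were Tbc1d13, a GTPase-activating protein of Rab proteins, with a Pearson r of 0.93, Tgtp2 with 0.88, Riok1 with 0.84, Cggbp1 with 0.84 and Ifi47 with 0.84. Only Tbc1d13 had an r over 0.9, while 15 genes had an r over 0.8 and 12 genes an r as far on the negative side, with Aoc2 the lowest at -0.90. Within the sexes taken singly, Tbc1d13 had 0.88 in mWT and 0.95 in fWT, whereas Riok1 had 0.36 in mWT and 0.92 in fWT (n = 6 mice each). The level of Tbc1d13 was 31.9 ± 2.38 CPM in mWT and 31.8 ± 4.19 CPM in fWT (SD, n = 6). Tgtp2 was low, at 0.841 ± 0.368 CPM in mWT and 1.56 ± 0.827 CPM in fWT (SD, n = 6). These levels are near the 0.5 CPM added before the log. The points share mice and libraries, and the values are given without a test.

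Of 14 listed regulators of Mup expression, 2 passed an adjusted p under 0.05 between mWT and fWT, 1 higher and 1 lower in males, a share close to the 17.3% of all genes tested that passed in either direction. Ghr, the growth hormone receptor, was higher in mWT, with 620 to 871 CPM against 520 to 615 CPM in fWT, a log2 fold change of 0.37 ± 0.08 (SE), adjusted p = 0.0014 by edgeR. Cux2, a transcription factor known to be female-specific in the liver, was near absent in males, with 0.0624 to 0.454 CPM against 9.39 to 42.7 CPM in fWT, a log2 fold change of -6.30 ± 0.50 (SE), adjusted p = 5.3e-09 by edgeR. The other 12, among them Stat5b, Hnf4a and Zhx2, did not pass by edgeR, and DESeq2 called 1 of these, Bcl6, as well. The median log2 fold change of the 14 was 0.08, against 0.00 over all genes tested.

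The KO mice served to check the labels and the background of reads counted on the 10 genes. In mKO 8 of the 10 genes had 0 reads in all 6 libraries. The exceptions were both in mouse 2, with 1 read on Mup14 and 4 on Mup17. In fKO 6 genes had 0 reads, and mouse 2 had 4 reads on Mup11, 1 on Mup7 and 1 on Mup17, while mouse 5 had 1 on Mup14. The 10 genes thus had 5 reads in mKO and 7 in fKO, against 1057559 in mWT and 33582 in fWT. The same libraries also held reads on deleted genes outside the 10. In mKO mouse 2 there were 3 reads on Mup3 and 2 on Mup20. In fKO mouse 2 there were 5 on Mup3, and in fKO mouse 5 there was 1 on Mup20. The source of these few reads was not tested. Among the female libraries, fKO mouse 2 was also the one with reads on Y genes.

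Counted against the floor of 3 reads per library, the highest being 0.199 CPM in mKO and 0.175 CPM in fKO, the means of the WT mice were at least 24963-fold higher for Mup7 in males and at least 229-fold higher for Mup18 in females. For Mup1 in females the bound was only 3.69-fold, since the gene is so low in fWT. For Mup17 in males, with its 4 reads, the ratio was 49959, with a 95% counting interval of 19512 to 183359. For the sum of the 10 genes in females the ratio was 4733, with a 95% counting interval of 2297 to 11774.

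The 10 genes are deleted in KO mice and passed the filter on low values through WT mice. The direction of the KO tests was therefore fixed in advance, and their counts are descriptions. In the test of mKO against mWT, 10 of 10 genes were lower at p under 0.01 and at an adjusted p under 0.05, where 1.72% and 0.178% of all genes tested were lower. When only mKO and mWT were fitted, 8 of 10 passed at an adjusted p under 0.05, and Mup9 and Mup18 had adjusted p = 0.090 and 0.056 by edgeR. In the test of fKO against fWT, 10 of 10 were lower at p under 0.01 and 6 of 10 at an adjusted p under 0.05, where 0.462% and 0.0892% of all genes tested were lower. These 6 were Mup7, Mup11, Mup12, Mup14, Mup16 and Mup17. Adjusted p was 0.93 for Mup1, 0.51 for Mup9, 0.44 for Mup15 and 0.056 for Mup18 by edgeR, although all 6 fKO libraries held 0 reads of these 4 genes. When only fKO and fWT were fitted, 6 of 10 passed again, with Mup9 at an adjusted p of 0.00010 by edgeR in place of Mup16 at 0.54. The 14 regulators gave 0 calls at an adjusted p under 0.05 in either sex by edgeR, where 0.211% of all genes tested passed in males and 0.0892% in females. DESeq2 also gave 0 calls in either sex. At an unadjusted p under 0.05 there were 0 in males and 1 in females, Ghr, with a log2 change of 0.20 ± 0.08 (SE).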

How the data were processed

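Liver RNA of 24 mice was measured by RNAseq, with 1 library per mouse. The authors deposited raw counts per Ensembl gene, made with featureCounts from single-end reads of a stranded mRNA kit. Per the submitters' processing notes and the paper's methods, reads were converted with bcl2fastq 2.19, trimmed with fastp 0.20 and aligned to GRCm38.p6 with STAR 2.7a. The strand setting and the treatment of reads that match several genes are not given in the sources used here. Groups and mouse numbers came from the sample labels.

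Symbols and coordinates were taken from GENCODE M21 for 25635 of 25746 listed genes. The quasi-likelihood test of edgeR 4.0.16 (R 4.3.3) was applied to the 12330 genes that reached 0.66 CPM in 6 or more of the 24 libraries, with TMM scaling, robust dispersions and 1 mean per group over all libraries. The SE of a log2 fold change was derived from its F statistic. Contrasts were mWT against fWT, mKO against mWT and fKO against fWT. Calls used an unadjusted p under 0.01, which is the cut-off of the study, and a Benjamini-Hochberg adjusted p under 0.05. The procedure was tested on simulated data. DESeq2 1.42.0 and other settings were tried as alternatives.

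The total count per library was 15361901 to 26261394. A value of 3 counts was taken as the detection floor. Intervals and floors cover counting error only, since reads carry no molecular identifiers. Every one of 60 pairs of mice within a group differed beyond sampling noise, with a lowest chi-square per gene of 7.67. The labels call the samples replicates of a group and each is a separate mouse.

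Coding sequences were aligned with mafft 7.526. Sums, shares, within-mouse ratios and coefficients of variation are descriptions without a test. Likeness to the sum used log2 of CPM plus 0.5. Named genes were the 10 genes, the highest other Mup genes by mean CPM in mWT or fWT, the regulators with an adjusted p under 0.05 between mWT and fWT and the 5 genes closest to the sum. The other tested Mup genes and Aoc2 were added after their values were seen, and so was the unadjusted regulator value in KO mice. A further listed regulator is not reported here, so that counts are over the other 14. The members and gene lists were chosen with earlier results of these data known. Figures used matplotlib 3.10.9 (Python 3.11.15).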

Additional observations from a re-analysis of the deposited data

Results flagged for a closer look

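Of 44 groups of 6 values of the 10 genes examined, 6 held 1 library far from the other 5. All 6 were libraries of KO mice with a few reads on a deleted gene beside 5 libraries with 0, where any read is always marked, so that the rate of about 1 in 20 that chance gives for continuous values does not apply. These were 1 read on Mup7, 4 on Mup11 and 1 on Mup17 in fKO mouse 2, 1 read on Mup14 in fKO mouse 5, and 1 read on Mup14 and 4 on Mup17 in mKO mouse 2. No group of WT mice was marked, for any of the 10 genes, their sum or their share of the Mup reads.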

How the results depend on the processing

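Across 540 recomputed values, 530 kept their direction and stayed within the limits set for them, 10 moved and 0 reversed. The count of 9 genes called between mWT and fWT was 9 under all 22 alternatives, by both rules, and the log2 fold change of Mup18 ran from 1.11 to 1.89 with an adjusted p of 0.114 to 0.366 by edgeR or DESeq2. Without mWT mouse 3, Mup18 had 1.11, and without fWT mouse 2 it had 1.89.

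In fKO against fWT, DESeq2 called 10 of the 10 genes and 18 genes in all at an adjusted p under 0.05, against 6 and 11. Leaving out 1 mouse gave 4 to 7 of the 10, with 4 in 11 of the 12 fits and 7 without fWT mouse 6, and 8 to 12 genes in all. Without fKO mouse 2 there were 4. The cause was not tested, but adjusted p of Mup12 and Mup16 was 0.049. In mKO against mWT, genes in all at an adjusted p under 0.05 numbered 26, but 142 by DESeq2, 48 when only the 2 groups were fitted, where 8 of the 10 genes passed, and 19 to 60 with 1 mouse left out, with 60 without mWT mouse 1 and 43 without mWT mouse 2. At p under 0.01 they numbered 285 to 525 in place of 434, with 285 without mWT mouse 5. The cause was not tested.

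The level per length of the highest gene over the lowest was 142 in mWT and 321 in fWT by merged exons. By the longest transcript it was 86.2 and 188, and by unique windows 105 in fWT, since these lengths differ between genes.

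Leaving out 1 WT mouse, an alternative chosen after seeing the data, left 6 to 8 of the 10 shares and 25 to 30 of the 45 ratios without overlap, with 8 and 30 without fWT mouse 6.

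Mouse numbers were not used to pair the groups. Deviations of mice with the same number correlated from -0.335 to 0.169, which cannot settle whether such mice were matched. With the replicate number as a block, 9 of the 10 genes were again called between the sexes, with 2190 genes in all at p under 0.01 in place of 2241, and the counts in mKO and fKO were 406 and 91.

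Genes close to the floor of 3 reads, such as Mup1 in fWT, and the division of shared reads limit these values.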
